A study of Mus musculus with 12 samples.

Results

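The genes described here are 39 transcripts of myeloid cells, the family of macrophages, monocytes, neutrophils and dendritic cells, read in RNA libraries of sorted mouse CD4+ T cells. They were taken by gene symbol from the deposited count table, and all 39 were found among its 24062 genes. Of the 39, 35 had enough counts to be tested, and Lyz1, Ear2, Cd209a and Clec9a did not. The libraries number 12 and fall into 6 groups of 2. Regulatory T cells (Treg, sorted as CD4+GFP+) and conventional T cells (Tconv, sorted as CD4+GFP-) came from tumour-bearing (TB) C57BL/6 mice, where tumour and spleen were both sampled, and from normal C57BL/6 mice. The deposited columns of the tumour libraries are marked LG where their titles read TM, and the name tumour follows the titles. The TB mice had received 500000 TC-1 cells, a transplantable mouse lung epithelial tumour line, into the tail vein 3 weeks before. No source used here gives the age of the mice or the locus that carries GFP. Normal mice contributed spleen alone, so a difference between tumour and spleen cannot be told apart from one between the tumour's host organ and spleen. Whether the 2 libraries of a group came from separate animals is not said, so p-values measure the spread between these libraries, which may be technical.

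Macrophages engulf debris and microbes, and they carry lysozyme, scavenger receptors, receptors for the tail of antibodies (Fc receptors) and the complement protein C1q. Alveolar macrophages, which live in the air spaces of the lung, are known for Marco, Chil3 and the Ear genes. Neutrophils carry S100a8 and S100a9 in the mature cell, while myeloperoxidase (Mpo) and the proteases Elane and Prtn3 are made in their bone marrow precursors. Dendritic cells are known for Flt3, Zbtb46 and, in the plasmacytoid kind, Siglech. Atp6v0d2 encodes the d2 subunit of the V-ATPase, the proton pump that acidifies lysosomes, and is known from osteoclasts and macrophages, while the d1 subunit is found in most cells. The 39 genes were read as 5 classes: 19 macrophage and monocyte genes, 9 broad myeloid genes that several myeloid cells share, 5 neutrophil genes, 5 dendritic genes, and Atp6v0d2 alone.

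Each library held between 18624132 and 24111546 counts, and levels are CPM, counts scaled to library size with TMM factors. The T cell genes Cd3e, Cd3g, Cd4, Lck and Foxp3 summed to between 3356 and 4965 CPM in every library, so all 12 held T cell RNA. Markers of B cells summed to at most 1.10 CPM and of mast cells and basophils to at most 1.56 CPM in any library. Fibroblast markers summed to between 212 and 519 CPM in the 4 tumour libraries and to at most 1.86 CPM in the 8 spleen libraries. Markers of lung and tumour epithelium summed to 88.2 to 164 CPM in the tumour, with the club cell gene Scgb1a1 at 59.4 to 105 CPM, and to 2.86 to 28.4 CPM in spleen, where most was Epcam. The part of these cells in the results was not tested. In a bulk library, fewer cells of a type and less RNA per cell cannot be told apart.

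Many myeloid genes carry a binding motif for PU.1, the transcription factor that Spi1 encodes, just before their start. The motif was searched as GAGGAAGT on both strands, where the other strand reads ACTTCCTC, within 250 bases before the start in RefSeq promoters of GRCm38.p6. The search covered 31 of the 39 genes, with 36 promoters. Atp6v0d2, C1qa, Cd14, Csf1r, Mmp9, Msr1, Spi1 and Tyrobp were not searched, so the shares below leave them out. The motif was in 5 of these 36 promoters (13.9%) against 2.44% of all 32851 promoters, in C1qc, Mmp12, Mpo, S100a8 and Spp1. Stretches of 80 bases are shown for a C1q chain and an alveolar macrophage protease, whose RNA was near 0 outside the tumour libraries, for Spp1, which the spleen Tconv libraries also held, and for the neutrophil gene S100a8. The capitals mark the motif, and each stretch is read 5′ to 3′ on the gene's strand. C1qc lies at chr4:136893066-136893145, minus strand. Spp1 lies at chr5:104434962-104435041, plus strand. Mmp12 lies at chr9:7344273-7344352 and S100a8 at chr3:90668863-90668942, both on the plus strand.
C1qc: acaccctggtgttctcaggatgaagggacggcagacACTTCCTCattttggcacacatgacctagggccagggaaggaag
Spp1: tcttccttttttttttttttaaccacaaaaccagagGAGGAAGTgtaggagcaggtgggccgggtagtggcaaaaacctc
Mmp12: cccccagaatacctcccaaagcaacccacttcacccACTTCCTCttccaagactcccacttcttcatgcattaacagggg
S100a8: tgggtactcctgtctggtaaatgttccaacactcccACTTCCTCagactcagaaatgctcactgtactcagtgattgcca

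The first letters of that motif, GAGGAA, were in the same window in 23.3% of all promoters and in 18 of the 36 member promoters (50%). By gene they were in 11 of 15 macrophage and monocyte genes, 3 of 4 neutrophil genes, 2 of 7 broad myeloid genes and 0 of 5 dendritic genes. The longer motif contains the shorter, so the counts are not independent. A match describes letters in this window and shows no binding, and no match says only that the letters are not there.

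RNA of core macrophage genes was present in all 4 tumour libraries, of Treg and Tconv alike, and was near 0 in spleen. A core of 9 genes known from macrophages (Lyz2, Csf1r, Fcgr1, Mrc1, Marco, Msr1, C1qa, C1qb and C1qc) summed to 245 and 353 CPM in tumour Treg and to 174 and 448 CPM in tumour Tconv. The same 9 genes summed to 1.72 and 5.12 CPM in TB spleen Treg, 0.782 and 1.26 in TB spleen Tconv, 0.209 and 0.312 in normal spleen Treg and 0.510 and 0.715 in normal spleen Tconv. The tumour and spleen libraries did not overlap, and tumour Tconv library 2 held the most and tumour Tconv library 1 the least of the 4 tumour libraries.

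**Figure D1:**
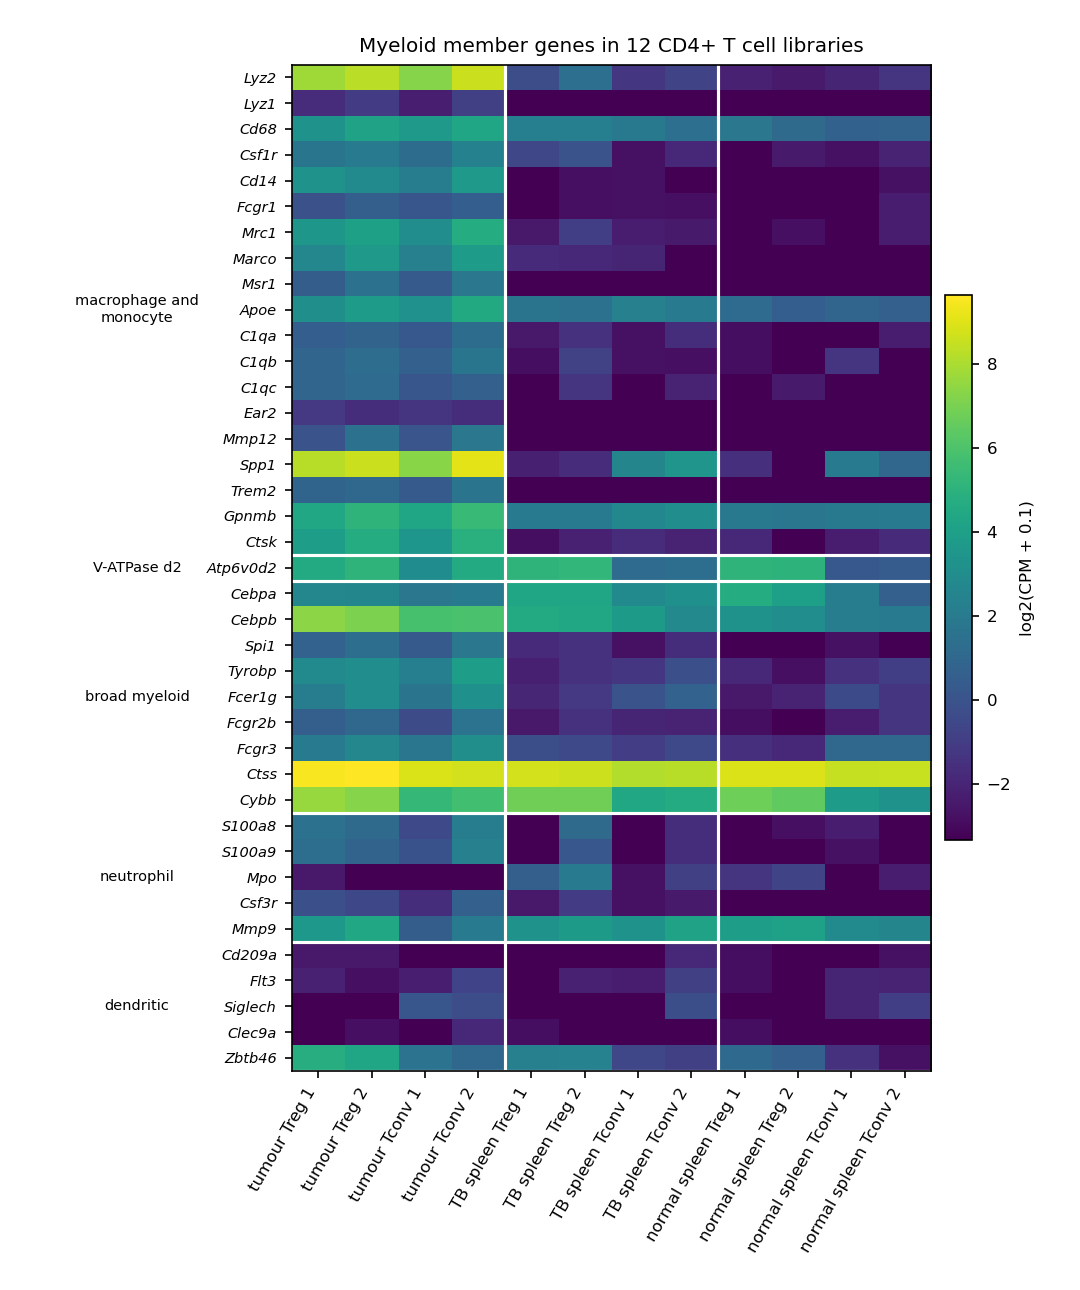
Level of the 39 genes (rows, grouped by class) in the 12 libraries (columns), as log2(CPM + 0.1). The macrophage and monocyte rows are high in the 4 tumour columns, where their core sums to 174 to 448 CPM, while Atp6v0d2, Cybb, Cebpa and Mmp9 are also high in spleen columns.

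Lysozyme 2 (Lyz2, an enzyme that cuts bacterial walls) was the main core gene, at 217 and 310 CPM in tumour Treg, 153 and 391 in tumour Tconv, 0.736 and 2.58 in TB spleen Treg, 0.313 and 0.539 in TB spleen Tconv, 0.125 and 0.0890 in normal spleen Treg and 0.153 and 0.286 in normal spleen Tconv. Marco, a scavenger receptor, stood at 6.34 and 12.9 CPM in tumour Treg, 4.91 and 14.3 in tumour Tconv, 0.204 and 0.169 in TB spleen Treg, 0.156 and 0 in TB spleen Tconv and 0 in the 4 normal spleen libraries. The complement chain C1qa stood at 1.35 and 1.66 CPM in tumour Treg, 1.07 and 2.31 in tumour Tconv, 0.0818 and 0.254 in TB spleen Treg, 0.0521 and 0.224 in TB spleen Tconv, 0.0418 and 0 in normal spleen Treg and 0 and 0.0954 in normal spleen Tconv. In each of these genes the lowest tumour library lay above the highest spleen library. Csf1r, the receptor for the macrophage growth factor M-CSF, was at 3.12 and 3.98 CPM in tumour Treg, 2.26 and 5.08 in tumour Tconv, 0.572 and 0.889 in TB spleen Treg, 0.0521 and 0.180 in TB spleen Tconv, 0 and 0.0890 in normal spleen Treg and 0.0510 and 0.143 in normal spleen Tconv. Csf1r was again highest in the tumour, and TB spleen Treg lay between the tumour and the other spleen groups.

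The rest of the class followed the same order. Scavenger and lectin receptors were the mannose receptor Mrc1 (8.06 to 25.6 CPM in the tumour, 0 to 0.423 in spleen) and Msr1 (1.18 to 3.40 against 0). The lipopolysaccharide co-receptor Cd14 ranged from 4.46 to 12.2 CPM in the tumour and from 0 to 0.0521 in spleen. Fcgr1, the high-affinity IgG receptor, ranged from 0.825 to 1.40 CPM in the tumour and from 0 to 0.0954 in spleen. The other C1q chains ranged from 1.47 to 3.13 (C1qb) and 1.02 to 2.18 CPM (C1qc) in the tumour and from 0 to 0.466 and 0 to 0.296 CPM in spleen. The lipid receptor Trem2 (1.18 to 3.08 CPM) and the elastase Mmp12 (0.911 to 3.40 CPM) were counted in tumour libraries and in none of the 8 spleen libraries. Cathepsin K (Ctsk), a lysosomal protease, ranged from 11.1 to 30.2 CPM in the tumour and from 0 to 0.208 in spleen. Ear2 (0.218 to 0.347 CPM) and Lyz1 (0.113 to 0.454 CPM) were counted only in the tumour libraries, at 23 and 26 counts in all. Lyz1 shares 16.1% of its 50-base windows with Lyz2 and Ear2 41.5% with other genes, chiefly Ear10, so their few counts are uncertain.

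Between tumour and TB spleen, 26 of the 35 tested members were called higher in tumour Treg and 2 lower, and 30 were called higher in tumour Tconv and 2 lower (edgeR quasi-likelihood test, adjusted p under 0.05). Of all 13509 genes tested, 61.4% were called in Treg and 49.1% in Tconv in either direction, with 32.8% and 26.4% called higher and 28.7% and 22.8% lower. Both comparisons use the TB spleen and were fitted together, so they are not independent of each other. Many members passed the filter on low counts only through the tumour libraries, so a difference was built into their passing. Of the members whose mean reached 0.453 CPM in both groups compared, 10 of 15 were called higher in Treg and 12 of 14 in Tconv. The median log2 difference of the 17 tested macrophage and monocyte genes was 5.64 in Treg and 5.43 in Tconv, beside 0.02 and 0.00 over all genes tested. Only 5 of the 17 in Treg and 4 in Tconv reached 0.453 CPM in both groups, so the filter shaped these medians too. For genes at 0 in the TB spleen group, a floor of 3 counts over the group gives lower bounds that cover counting error only. Msr1 was at least 33.5-fold higher in tumour Treg and at least 33.4-fold higher in tumour Tconv, Mmp12 at least 30.4-fold and 32.0-fold, and Trem2 at least 29.3-fold and 30.9-fold. DESeq2 did not call these 3 genes in either cell type (adjusted p = 0.177 to 0.221). The C1qb call in Treg was lost without TB spleen Treg library 1 (2.12, adjusted p = 0.0570), and the C1qc call in Tconv without TB spleen Tconv library 1 (3.15, adjusted p = 0.0553).

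In the tumour, the proportions of most macrophage genes to the others varied by less than 2 times over the 4 libraries. The count of each gene was divided by the count of the core genes other than itself. Lyz2 gave 7723 counts per 1000 other core counts in tumour Treg library 1, 7128 in library 2, 7293 in tumour Tconv library 1 and 6899 in library 2. The highest was 1.12 times the lowest. Csf1r (1.15 times), Ctsk (1.15 times), Trem2 (1.24 times), C1qb (1.26 times) and Mrc1 (1.27 times) also varied little. Over the 18 macrophage and monocyte genes with at least 5 counts in each tumour library, the median of this spread was 1.39 times, and Ear2, with 23 counts, had the widest at 3.20 times. A small spread was not particular to macrophage genes. Of the fibroblast genes, Dcn varied by 1.22 times, Pdgfra by 1.31, Col3a1 by 1.53, Col1a2 by 1.79 and Col1a1 by 1.92 times. In level, tumour Tconv library 2 stood to library 1 at between 0.804 times (Ear2) and 3.55 times (Mmp12) over the same 18 genes. It was higher by 2.56 times for Lyz2, 3.18 times for Mrc1, 2.92 times for Marco and 3.38 times for Spp1, but by only 1.34 times for Fcgr1, 1.43 times for C1qc and 1.56 times for Cd68.

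**Figure D2:**
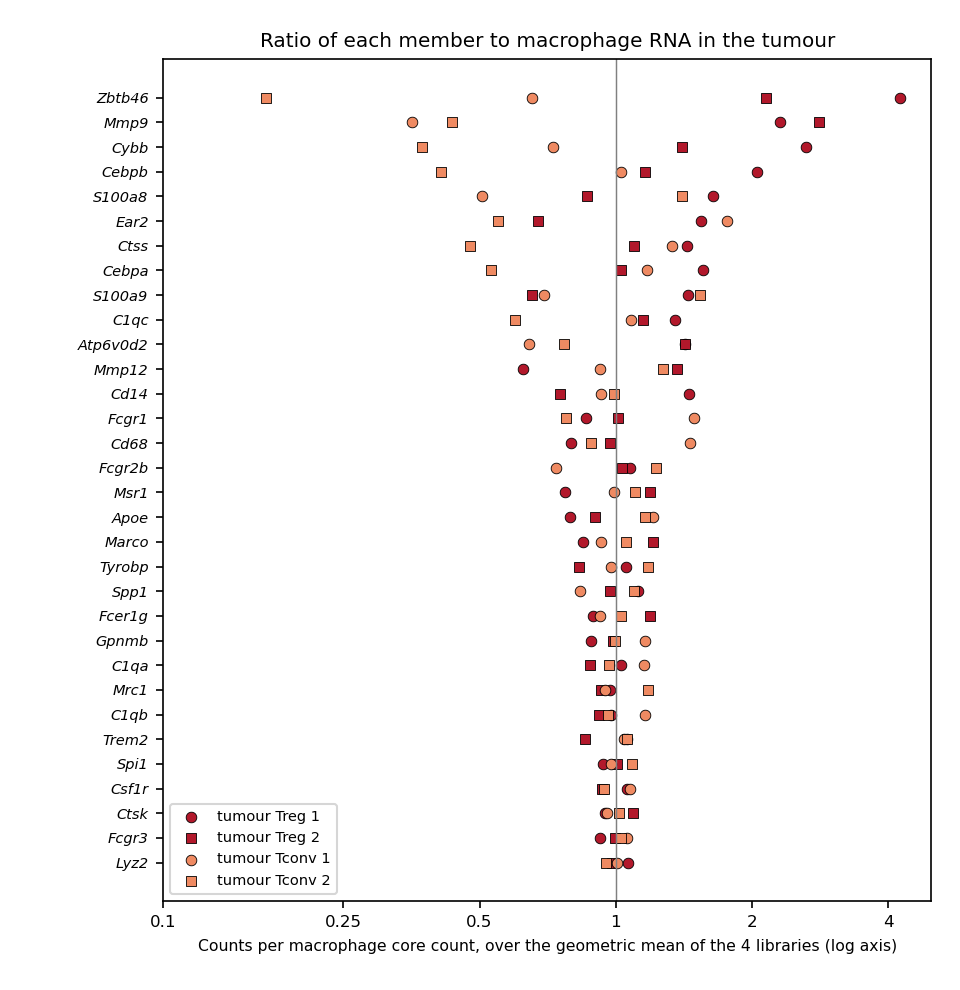
Counts of each member per macrophage core count in the 4 tumour libraries, divided by the geometric mean of the 4 (log axis), 1 point per library. Lyz2, Csf1r, Ctsk, Spi1 and Fcgr3 sit close to 1 in all 4 libraries, whereas Zbtb46, Mmp9 and Cybb spread by 25.1, 7.93 and 7.07 times.

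Lyz2 held a smaller share of the core in TB spleen than in tumour. It was at 750 counts per 1000 other core counts in TB spleen Treg library 1 (95% exact interval 384 to 1441, from 18 counts) and 1017 in library 2 (700 to 1477, from 61 counts). In TB spleen Tconv it was at 667 (195 to 2097) and 750 (324 to 1690). These 4 upper limits lay below the lowest tumour value, whose interval began at 6501. The normal spleen libraries held 2 to 6 Lyz2 counts each, and the interval of Treg library 1 (1500, 172 to 17959) covered the tumour values. These intervals cover counting error only.

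Osteopontin (Spp1), a secreted adhesion protein, had the highest mean level of the class. It was at 305 and 381 CPM in tumour Treg, 161 and 546 in tumour Tconv, 0.123 and 0.212 in TB spleen Treg, 5.89 and 10.6 in TB spleen Tconv, 0.251 and 0 in normal spleen Treg and 3.82 and 1.86 in normal spleen Tconv. In the tumour it followed the core (spread 1.34 times), and in spleen all 4 Tconv libraries exceeded all 4 Treg libraries. In TB spleen it was lower in Treg than in Tconv by a log2 difference of −5.60 ± 1.24 (SE; edgeR adjusted p = 0.00297), from 8 counts against 349. limma-voom gave adjusted p = 0.138 for it. In normal spleen the log2 difference was −4.38 ± 1.69 (edgeR adjusted p = 0.0555). The step from TB spleen to tumour was larger in Treg than in Tconv by a log2 difference of 5.55 ± 1.35 (interaction, edgeR adjusted p = 0.0108). Its call was lost without TB spleen Treg library 1 (5.22, adjusted p = 0.0598), without TB spleen Tconv library 2 (5.05, adjusted p = 0.0615) and with limma-voom (5.67, adjusted p = 0.164). It was 4.91 without tumour Tconv library 1 and 6.68 without library 2. Of the exonic bases of Spp1, 18.8% are shared with the gene model Gm42793 on the same strand.

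Gpnmb, a lysosomal membrane glycoprotein, was at 21.2 and 34.1 CPM in tumour Treg, 19.8 and 43.7 in tumour Tconv, 3.84 and 4.06 in TB spleen Treg, 6.51 and 7.99 in TB spleen Tconv, 3.64 and 3.29 in normal spleen Treg and 3.72 and 3.77 in normal spleen Tconv. Apoe, a carrier of lipids, was at 8.68 and 14.2 CPM in tumour Treg, 9.42 and 23.3 in tumour Tconv, 3.03 and 2.71 in TB spleen Treg, 4.95 and 3.95 in TB spleen Tconv, 2.18 and 1.38 in normal spleen Treg and 1.78 and 1.48 in normal spleen Tconv. Cd68, a lysosomal membrane protein, ranged from 9.85 to 20 CPM in the tumour and from 1.53 to 4.70 in spleen. These 3 genes were thus counted in spleen libraries at levels where the core was near 0, though they too were higher in every tumour library than in any spleen library. Apoe was higher in TB than in normal spleen Tconv by a log2 difference of 1.44 ± 0.45 (edgeR adjusted p = 0.0440). That call was lost in 8 of the 12 fits that left out a library, each time a spleen library, with adjusted p of 0.0531 to 0.233, and with limma-voom (adjusted p = 0.210).

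A further list of alveolar macrophage genes moved with the core. The chitinase-like Chil3 was at 196 and 217 CPM in tumour Treg, 101 and 292 in tumour Tconv, and at most 0.973 CPM in any spleen library. The list of 12 genes summed to between 115 and 322 CPM in the tumour and to at most 3.39 CPM in spleen. Its 10 tested genes were all called higher in the tumour, in Treg (32.8% of all genes) and in Tconv (26.4%). Only 2 of them in Treg and 0 in Tconv reached 0.453 CPM in both groups, so most passed the filter through the tumour libraries alone and nothing is read from the count. Per macrophage core count, Chil3 varied by 1.37 times over the 4 tumour libraries and Plet1 by 1.17 times. Pparg, a lipid sensor, varied by 7.99 times and was highest in tumour Treg, at 12.3 and 12.8 CPM against 3.05 and 2.81 in tumour Tconv. A list of 5 spleen red pulp macrophage genes summed to 2.53 to 11.1 CPM in spleen and 18.2 to 35.4 CPM in the tumour. Its defining genes Spic and Cd5l were at 0.127 CPM or less in spleen, where most of the sum was Hmox1 (2.09 to 7.74 CPM).

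The broad myeloid class divided into genes that kept their ratio to the macrophage core and genes that did not. Spi1, Tyrobp, Fcer1g, Fcgr2b and Fcgr3 kept it, with spreads over the 4 tumour libraries of 1.16, 1.42, 1.34, 1.67 and 1.15 times. Cebpa, Ctss, Cebpb and Cybb did not, with spreads of 2.94, 3.02, 4.98 and 7.07 times. The genes of the second set were also well counted in spleen. Fibroblast genes kept a steady ratio to the core too, so a kept ratio was not particular to macrophage genes.

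Spi1, which encodes PU.1, ranged from 1.18 to 3.40 CPM in the tumour and from 0 to 0.254 in spleen. Tyrobp, the signalling adaptor DAP12, ranged from 4.68 to 14.6 CPM in the tumour and from 0.0445 to 0.808 in spleen. The inhibitory Fc receptor Fcgr2b ranged from 0.677 to 2.90 CPM in the tumour and from 0 to 0.286 in spleen. Fcer1g, the common chain that Fc receptors signal through, was at 4.21 and 8.13 CPM in tumour Treg, 3.10 and 8.89 in tumour Tconv, 0.164 and 0.339 in TB spleen Treg, 0.886 and 1.57 in TB spleen Tconv, 0.0837 and 0.134 in normal spleen Treg and 0.662 and 0.286 in normal spleen Tconv. In spleen, each Tconv group lay above the Treg group of the same mice. In TB spleen Fcer1g was lower in Treg by a log2 difference of −2.29 ± 0.73 (edgeR adjusted p = 0.0245). The call was lost without TB spleen Treg library 1 (−1.86), without library 2 (−2.88), without TB spleen Tconv library 2 (−1.80) and with limma-voom (adjusted p = 0.119).

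Fcgr3, a low-affinity IgG receptor, was at 4.08 and 6.33 CPM in tumour Treg, 3.33 and 8.30 in tumour Tconv, 0.777 and 0.635 in TB spleen Treg, 0.417 and 0.628 in TB spleen Tconv, 0.251 and 0.178 in normal spleen Treg and 1.99 and 2.00 in normal spleen Tconv. Normal spleen Tconv stood above the other 3 spleen groups. Fcgr3 was lower in Treg than in Tconv of normal spleen by a log2 difference of −3.18 ± 0.57 (edgeR adjusted p = 0.000667), and lower in TB than in normal spleen Tconv by −1.91 ± 0.50 (edgeR adjusted p = 0.0221). The second call was lost without either library of TB spleen Tconv (−1.66 and −2.24) or of normal spleen Tconv (−1.91 and −1.90) and with limma-voom (adjusted p = 0.0911). Fcgr3 and Fcgr2b share 12.8% and 7.44% of their 50-base windows.

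Cathepsin S (Ctss), which trims the chain that guards MHC class II, had the highest level of the 39 genes also per kilobase of exon, at 555 ± 38.2 CPM per kb in tumour Treg (SD, n = 2). It was at 717 and 790 CPM in tumour Treg, 472 and 434 in tumour Tconv, 422 and 403 in TB spleen Treg, 281 and 306 in TB spleen Tconv, 495 and 487 in normal spleen Treg and 358 and 378 in normal spleen Tconv. At each site both Treg libraries exceeded both Tconv libraries. The log2 difference between Treg and Tconv was 0.74 ± 0.07 in tumour, 0.49 ± 0.07 in TB spleen and 0.42 ± 0.07 in normal spleen (edgeR adjusted p = 3.43e-06, 0.00018 and 0.000629). Ctss was lower in TB than in normal spleen, by −0.25 ± 0.07 in Treg and −0.33 ± 0.07 in Tconv (edgeR adjusted p = 0.0391 and 0.0114). In Treg that call was lost with DESeq2 size factors (−0.24, adjusted p = 0.0580), with library-size scaling (−0.18, adjusted p = 0.0972), without a filter (−0.23, adjusted p = 0.0551), without any library of either Treg spleen group (−0.28 to −0.22) and without either normal spleen Tconv library (adjusted p = 0.0602 and 0.0654). In Tconv it was lost without TB spleen Tconv library 1 (−0.27) and without normal spleen Tconv library 2 (−0.29).

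Cybb encodes the membrane core of the phagocyte NADPH oxidase. It was at 200 and 154 CPM in tumour Treg, 39.2 and 51.8 in tumour Tconv, 113 and 113 in TB spleen Treg, 21.1 and 24.9 in TB spleen Tconv, 108 and 86.7 in normal spleen Treg and 14.2 and 9.87 in normal spleen Tconv. Every Treg library lay above every Tconv library, whatever the site. The log2 difference between Treg and Tconv was 1.95 ± 0.17 in tumour, 2.29 ± 0.18 in TB spleen and 3.02 ± 0.20 in normal spleen (edgeR adjusted p = 1.01e-06, 6.98e-07 and 1.09e-07). From TB spleen to tumour, Cybb rose by 0.65 ± 0.16 in Treg and 0.99 ± 0.18 in Tconv (edgeR adjusted p = 0.00398 and 0.000808), and the first call was lost without tumour Treg library 1 (0.44, adjusted p = 0.0513). In Tconv it was higher in TB than in normal spleen by 0.94 ± 0.21 (edgeR adjusted p = 0.00951), a call lost without TB spleen Tconv library 2 (0.81) or normal spleen Tconv library 2 (0.70).

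The C/EBP transcription factors moved in opposite directions between the sites. Cebpb was at 163 and 133 CPM in tumour Treg, 58.4 and 60 in tumour Tconv, 24 and 21.1 in TB spleen Treg, 13.3 and 6.82 in TB spleen Tconv, 9.54 and 8.10 in normal spleen Treg and 4.18 and 3.91 in normal spleen Tconv. It was higher in the tumour than in TB spleen by 2.72 ± 0.19 in Treg and 2.57 ± 0.21 in Tconv, on the log2 scale (edgeR adjusted p = 2.20e-07 and 1.20e-06). It was also higher in TB than in normal spleen, by 1.35 ± 0.21 in Treg and 1.30 ± 0.27 in Tconv (edgeR adjusted p = 0.00182 and 0.00702), and in Treg than in Tconv at each site, by 1.13 to 1.33. The Tconv call between spleens was lost without normal spleen Tconv library 2 (1.25, adjusted p = 0.0656). Of its exonic bases 20.7% lie opposite Tmem189, and no source used here states whether counting used strand.

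Cebpa was at 6.34 and 6.03 CPM in tumour Treg, 3.38 and 3.95 in tumour Tconv, 20.4 and 20.3 in TB spleen Treg, 7.30 and 8.93 in TB spleen Tconv, 26 and 16.0 in normal spleen Treg and 4.23 and 1.48 in normal spleen Tconv. It was lower in the tumour than in TB spleen, by a log2 difference of −1.72 ± 0.30 in Treg and −1.14 ± 0.34 in Tconv (edgeR adjusted p = 0.000383 and 0.0148). The Tconv call was lost without TB spleen Tconv library 2 (−0.99, adjusted p = 0.0929). Treg exceeded Tconv by 1.32 ± 0.30 in TB spleen and 2.89 ± 0.34 in normal spleen (edgeR adjusted p = 0.00338 and 2.17e-05; the second was 3.82 without normal spleen Tconv library 1), and by 0.75 ± 0.35 in tumour, which was not called (adjusted p = 0.0869). In Tconv Cebpa was higher in TB than in normal spleen by 1.52 ± 0.35 (edgeR adjusted p = 0.0124). That value was 2.45 without normal spleen Tconv library 1, and the call was lost without library 2 (0.94) and without TB spleen Tconv library 2 (1.36).

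**Figure D3:**
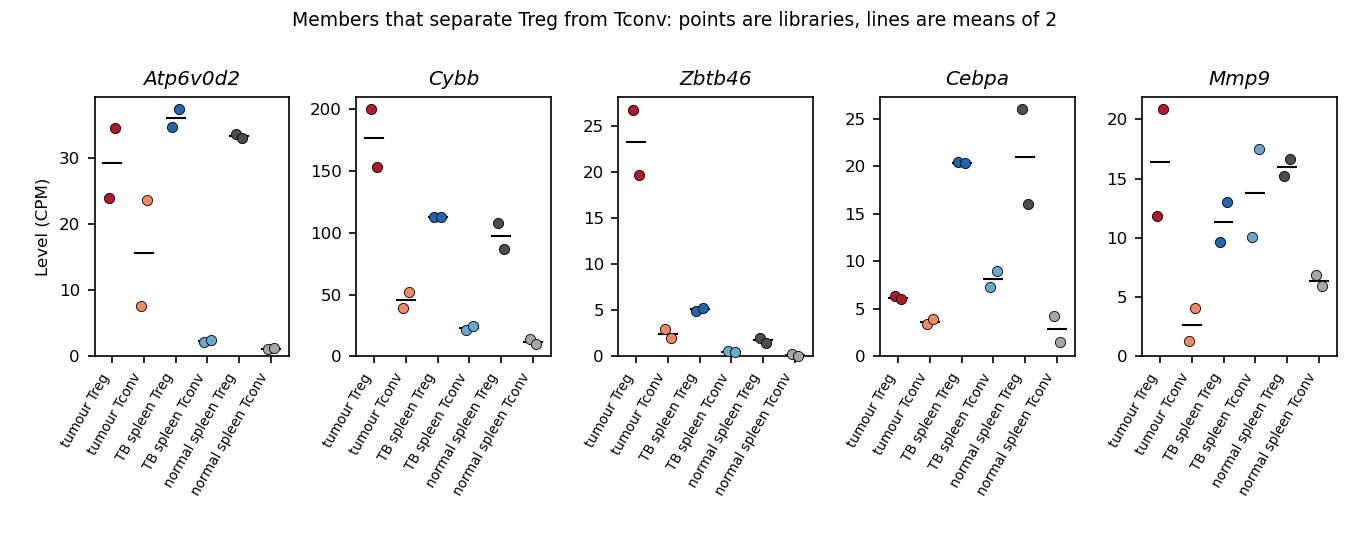
Level in CPM of Atp6v0d2, Cybb, Zbtb46, Cebpa and Mmp9 in the 6 groups, where points are libraries and lines are means of 2. Both spleen Treg groups lie above both spleen Tconv groups for Atp6v0d2 (33.0 to 37.4 against 1.07 to 2.42 CPM), Cybb and Zbtb46, and Mmp9 is lowest in tumour Tconv (1.30 and 4.08 CPM).

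Neutrophil genes did not move as one. The calcium-binding S100a8 was at 2.82 and 2.14 CPM in tumour Treg, 0.620 and 4.4 in tumour Tconv, 0 and 2.16 in TB spleen Treg, 0 and 0.224 in TB spleen Tconv, 0 and 0.0445 in normal spleen Treg and 0.102 and 0 in normal spleen Tconv. Its partner S100a9 was at 2.47 and 1.62 CPM in tumour Treg, 0.846 and 4.81 in tumour Tconv, 0 and 1.06 in TB spleen Treg, 0 and 0.224 in TB spleen Tconv, 0 in both normal spleen Treg libraries and 0.0510 and 0 in normal spleen Tconv. Both genes were thus present in all 4 tumour libraries and in library 2 of TB spleen Treg, which held 51 S100a8 counts where library 1 held 0. Library 2 of TB spleen Tconv also held both, at 5 counts each, where its library 1 held 0. Of 11 further neutrophil genes, 5 and 0 had no counts in TB spleen Treg libraries 1 and 2, and 9 and 1 in TB spleen Tconv. Csf3r, the receptor for the neutrophil growth factor G-CSF, ranged from 0.226 to 1.45 CPM in the tumour and from 0 to 0.381 in spleen. Between tumour and TB spleen Tconv, S100a8, S100a9 and Csf3r were called higher, at log2 differences of 4.36 ± 1.47, 4.52 ± 1.32 and 3.49 ± 1.10 (edgeR adjusted p = 0.0272, 0.0145 and 0.0231). Without tumour Tconv library 2 they were 2.31, 2.75 and 1.56, and without TB spleen Tconv library 1 they were 3.47, 3.64 and 3.19, with no call in either fit. Without TB spleen Tconv library 2, S100a8 (adjusted p = 0.0671) and Csf3r (0.0950) were not called and S100a9 was (0.0418). DESeq2 called neither S100a8 (adjusted p = 0.144) nor S100a9 (0.144), and limma-voom did not call S100a8 (0.0810). In Treg these 3 genes were not called (1.21 ± 1.05, 1.95 ± 1.04 and 1.58 ± 0.88).

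Mpo ran the other way. It was at 0.0868 and 0 CPM in tumour Treg, 0 in both tumour Tconv libraries, 1.43 and 3.85 in TB spleen Treg, 0.0521 and 0.449 in TB spleen Tconv, 0.293 and 0.534 in normal spleen Treg and 0 and 0.0954 in normal spleen Tconv. TB spleen Treg was highest, and the tumour held 2 counts in all against 126 in TB spleen Treg. The ratio of tumour to TB spleen Treg was 0.0166 (95% counting interval 0.00199 to 0.0613; edgeR adjusted p = 0.00061). The call held in each fit that left out a library (log2 difference −4.87 without TB spleen Treg library 2 and −4.84 without tumour Treg library 2). Mpo was higher in TB than in normal spleen Treg by a log2 difference of 2.66 ± 0.74 (edgeR adjusted p = 0.0340) and in TB spleen Treg than Tconv by 3.31 ± 0.80 (edgeR adjusted p = 0.00627). Without TB spleen Treg library 2 these were 1.78 (adjusted p = 0.292) and 2.43 (adjusted p = 0.0789). The first call was also lost without either normal spleen Treg library (2.29 and 3.14), and the second without TB spleen Tconv library 1 (2.54), while without library 2 it was 5.51. Elane and Prtn3, named for their kinship with Mpo after their values were seen, had the same order. Elane had 12 and 11 counts in TB spleen Treg and 0 in the 4 tumour libraries, and Prtn3 had 10 and 29 counts in TB spleen Treg and at most 2 in a tumour library. Of the exonic bases of Mpo, 15.0% lie opposite the gene model Gm11505.

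**Figure D4:**
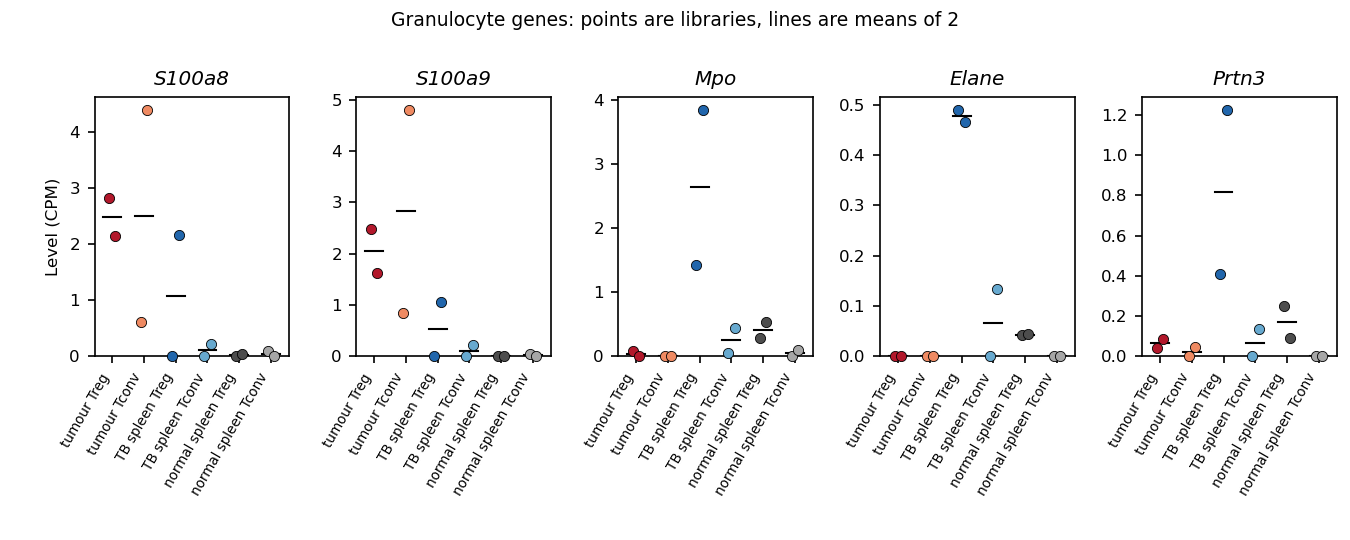
Level in CPM of S100a8, S100a9, Mpo, Elane and Prtn3 in the 6 groups, where points are libraries and lines are means of 2. S100a8 and S100a9 are present in the 4 tumour libraries, and Mpo, Elane and Prtn3 are highest in TB spleen Treg, where library 2 reached 3.85 CPM of Mpo.

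Mmp9, a gelatinase stored in neutrophil granules, had a pattern apart from the other neutrophil genes. It was at 11.8 and 20.9 CPM in tumour Treg, 1.30 and 4.08 in tumour Tconv, 9.61 and 13 in TB spleen Treg, 10.1 and 17.5 in TB spleen Tconv, 15.2 and 16.6 in normal spleen Treg and 6.88 and 5.91 in normal spleen Tconv. Tumour Tconv alone was low, and every spleen library held more Mmp9 than either tumour Tconv library, including the spleen libraries with 0 counts of S100a8 and S100a9. Between tumour and TB spleen, the log2 difference was −2.31 ± 0.42 in Tconv (edgeR adjusted p = 0.00062) and 0.53 ± 0.35 in Treg (adjusted p = 0.205). The difference between these changes was 2.85 ± 0.55 (interaction, edgeR adjusted p = 0.00291). In the tumour Treg exceeded Tconv by 2.56 ± 0.41 and in normal spleen by 1.32 ± 0.37 (edgeR adjusted p = 0.000192 and 0.0131). Without tumour Tconv library 2 the Tconv change was −3.42, the interaction 3.94 and the tumour Treg excess 3.64. The normal spleen call was lost without Treg library 2 (1.25), Tconv library 1 (1.43) or Tconv library 2 (1.21).

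The dendritic members Clec9a, Cd209a, Flt3 and Siglech had 18 counts or fewer in every library. Clec9a (0 to 0.181 CPM) and Cd209a (0 to 0.180 CPM), lectins of conventional and monocyte-derived dendritic cells, had 4 counts or fewer per library. Flt3, the receptor for the dendritic growth factor Flt3 ligand, was at 0.130 and 0.0437 CPM in tumour Treg, 0.113 and 0.499 in tumour Tconv, 0 and 0.127 in TB spleen Treg, 0.104 and 0.449 in TB spleen Tconv, 0.0418 and 0 in normal spleen Treg and 0.153 and 0.143 in normal spleen Tconv. Its tumour and TB spleen libraries overlapped in both cell types. Siglech was at 0 CPM in all 6 Treg libraries, at 1.02 and 0.726 in tumour Tconv, 0 and 0.763 in TB spleen Tconv and 0.153 and 0.429 in normal spleen Tconv. In the tumour, where Tconv held 34 counts, it was at least 13.1-fold lower in Treg (edgeR adjusted p = 0.0121), counted against the floor of 3 counts. The edgeR call was lost without tumour Treg library 1 (adjusted p = 0.0598) or library 2 (0.0551) and with DESeq2 (0.152). Of 13 further dendritic genes, 8 were tested, and 7 were called higher in tumour Treg (32.8% of all genes) and 6 in tumour Tconv (26.4%) than in TB spleen. Of the 3 in Treg and 4 in Tconv that reached 0.453 CPM in both groups, 2 were called higher in each. Of the 3 with the highest mean level, Tcf4 was at 30.2 and 41.5 CPM in tumour Treg, 25.6 and 61.9 in tumour Tconv and 5.05 to 10.5 in spleen. Fscn1 was at 7.11 to 15.6 CPM in the tumour and 0.167 to 0.736 in spleen, and Naaa at 10.2 to 13.8 CPM in the tumour and 11 to 14 in spleen. Below these in mean level, Itgax was at 5.53 to 13.8 CPM in the tumour and 0 to 0.494 in spleen. Xcr1 was at 1.27 to 5.20 CPM and 0.204 to 1.76, and Wdfy4 at 1.18 to 3.04 and 0.123 to 0.550. Per macrophage core count, these varied by 1.06, 7.37 and 1.28 times over the tumour libraries. Clec10a, Cd209d, Ccl17, Klk1 and Cox6a2 were at 0.454 CPM or less in every library.

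Zbtb46, a transcription factor known from conventional dendritic cells, was well counted, unlike Clec9a, Cd209a, Flt3 and Siglech. It was at 26.8 and 19.7 CPM in tumour Treg, 2.93 and 1.95 in tumour Tconv, 4.91 and 5.29 in TB spleen Treg, 0.573 and 0.449 in TB spleen Tconv, 2.05 and 1.47 in normal spleen Treg and 0.255 and 0.0477 in normal spleen Tconv. Treg exceeded Tconv at each site, by log2 differences of 3.26 ± 0.27 in tumour, 3.31 ± 0.36 in TB spleen and 3.53 ± 0.51 in normal spleen (edgeR adjusted p = 6.80e-07, 1.09e-05 and 0.000136). The last was 5.05 without normal spleen Tconv library 1 and 2.76 without library 2. The tumour exceeded TB spleen by 2.19 ± 0.25 in Treg and 2.24 ± 0.39 in Tconv (edgeR adjusted p = 1.28e-05 and 0.000496). In Treg TB spleen exceeded normal spleen by 1.53 ± 0.29 (edgeR adjusted p = 0.00487), a call lost without normal spleen Treg library 2 (1.31, adjusted p = 0.0705). Tumour Tconv library 2, with 2.57 times the macrophage core CPM of library 1 (448 against 174 CPM), held 0.665 times its Zbtb46.

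Atp6v0d2 (chr4:19876841-19922605, minus strand, mm10, with no exonic base shared with another annotated gene) was high in Treg at every site, whether the macrophage core was high or near 0. It was at 24 and 34.6 CPM in tumour Treg, 7.67 and 23.7 in tumour Tconv, 34.7 and 37.4 in TB spleen Treg, 2.24 and 2.42 in TB spleen Tconv, 33.7 and 33.0 in normal spleen Treg and 1.07 and 1.24 in normal spleen Tconv. The normal spleen Treg libraries held 805 and 742 Atp6v0d2 counts beside 5 and 7 counts of the 9 core genes together. Spleen Treg and spleen Tconv did not overlap, and tumour Tconv lay above the other Tconv groups, with its library 2 (23.7 CPM) just below the lowest Treg library (24 CPM). Per kilobase of exon, its level was 13.3 ± 0.694 CPM in TB spleen Treg and 10.8 ± 2.77 in tumour Treg (SD, n = 2). The order of the group means from the highest was TB spleen Treg, normal spleen Treg, tumour Treg, tumour Tconv, TB spleen Tconv and normal spleen Tconv. The spleen Treg groups differed by a log2 difference of 0.11 ± 0.31 (edgeR adjusted p = 0.864), and the spleen Tconv groups by 1.01 ± 0.64 (adjusted p = 0.311). The second was called with a fit of only the groups compared (1.02, adjusted p = 0.0204) and without either tumour Tconv library (adjusted p = 0.0327 and 0.0308).

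From TB spleen to tumour, Atp6v0d2 rose in Tconv by a log2 difference of 2.77 ± 0.43 (edgeR adjusted p = 0.000232; 1.70 without tumour Tconv library 2). In Treg the difference was −0.30 ± 0.32 (adjusted p = 0.426), with a call in 1 alternative, without tumour Tconv library 2 (−0.32, adjusted p = 0.0443). The change in Treg less that in Tconv was −3.07 ± 0.54 (interaction, edgeR adjusted p = 0.00174; −3.66 without tumour Tconv library 1 and −2.02 without library 2). Treg exceeded Tconv by 3.95 ± 0.42 in TB spleen and 4.84 ± 0.47 in normal spleen (edgeR adjusted p = 9.44e-06 and 4.32e-06). In the tumour the excess was 0.88 ± 0.33 (edgeR adjusted p = 0.0404). That call was lost with DESeq2 (adjusted p = 0.111), with a fit of only the groups compared (0.159) and in 10 of the 12 fits that left out a library. The excess was 0.28 without tumour Tconv library 1, 0.59 without tumour Treg library 2 and 1.92 without tumour Tconv library 2, and without 8 spleen libraries in turn it was 0.87 to 0.88 with adjusted p of 0.0525 to 0.0578.

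Against the macrophage core, Atp6v0d2 gave 97.8 counts per 1000 core counts in tumour Treg library 1 (95% exact interval 89.5 to 107) and 97.9 in library 2 (90.9 to 105). In tumour Tconv it gave 44.1 (36.9 to 52.4) and 52.9 (48.3 to 57.7). The ratio was higher in both Treg libraries than in both Tconv libraries. With C1qa, C1qb and C1qc alone as the core, the Treg libraries gave 4929 and 5577 per 1000 and the Tconv libraries 2159 and 3434. In spleen the same ratio ran from 1733 counts per 1000 in normal spleen Tconv library 2 to 161000 in normal spleen Treg library 1, far from any tumour value. Its spread over the 4 tumour libraries was 2.22 times, above the 1.39 times that was the median of the macrophage and monocyte genes. Between the tumour Tconv libraries, library 2 exceeded library 1 by 3.09 times for Atp6v0d2. That lay within the range of the macrophage and monocyte genes (0.804 to 3.55 times) and also beside genes of other cells, such as Mmp9 (3.15) and the fibroblast genes Pdgfra (3.34), Dcn (2.79) and Col3a1 (2.48). Less the mean of TB spleen Tconv (2.33 CPM), tumour Tconv held 5.34 and 21.3 CPM of Atp6v0d2, or 30.7 and 47.7 per 1000 CPM of core. Less the mean of TB spleen Treg (36.1 CPM), tumour Treg stood at −12.1 and −1.48 CPM. These are descriptions of 4 libraries, and whether macrophage RNA gave the Atp6v0d2 of tumour Tconv was not tested.

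**Figure D5:**
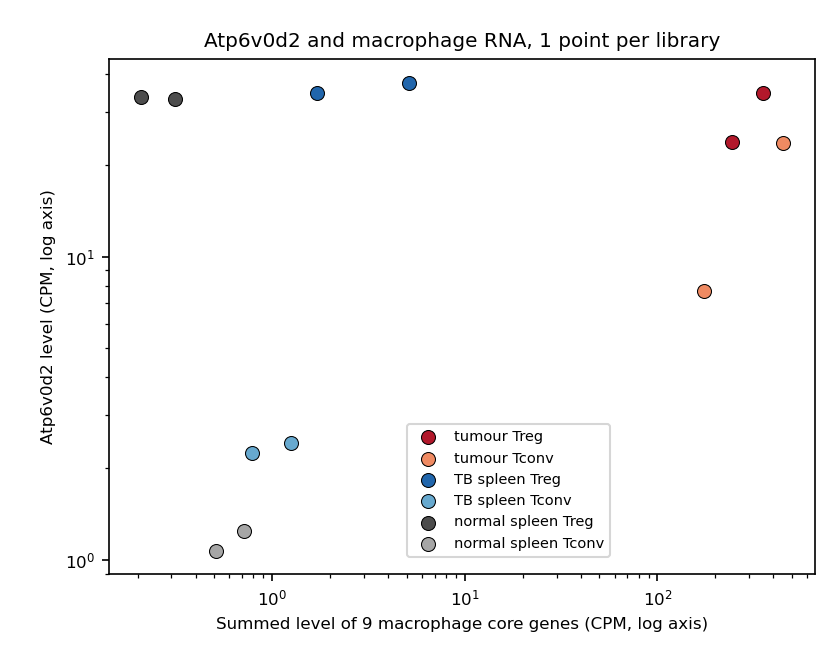
Level of Atp6v0d2 against the summed level of the 9 macrophage core genes, both in CPM on log axes, 1 point per library coloured by group. The 4 spleen Treg libraries lie at 33.0 to 37.4 CPM of Atp6v0d2 with at most 5.12 CPM of core, and the tumour Tconv libraries lie at 7.67 and 23.7 CPM with 174 and 448 CPM of core.

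Over the 12 libraries the genes most like Atp6v0d2 were not macrophage genes. Likeness was the root mean square difference of log2(CPM + 0.1), each gene centred on its mean, over 13508 other genes. Rin2, an endocytic adaptor, was nearest at 0.28, followed by the Wnt receptor Fzd6 (0.45), the retinol transporter Stra6 (0.45), Sh3bgrl2 (0.47) and the lymphatic growth factor Vegfc (0.51). Rin2 was at 31.3 and 44.4 CPM in tumour Treg, 8.52 and 23.8 in tumour Tconv, 41.1 and 36.6 in TB spleen Treg, 3.13 and 4.13 in TB spleen Tconv, 41.6 and 25.6 in normal spleen Treg and 1.63 and 1.53 in normal spleen Tconv. Like Atp6v0d2, it was high in spleen Treg, low in spleen Tconv and 2.79 times higher in tumour Tconv library 2 than in library 1. The nearest of the 39 genes were Cybb (rank 47, 0.81), Zbtb46 (rank 632, 1.28) and Cebpa (rank 1290, 1.51). With 1 added to CPM in place of 0.1, Cybb was at rank 9 (0.63), and Lima1 and Arhgef5 stood among the 5 nearest genes in place of Fzd6 and Vegfc. Over the 4 tumour libraries alone, where fewer points set the order, the nearest members were Spp1 (rank 758, 0.45), C1qc (rank 814, 0.46) and Fcgr2b (rank 830, 0.47). Cybb was then at rank 3467 and Zbtb46 at rank 12695. The 5 nearest genes were then Phka1, Mcf2l, Srcrb4d, Fkbp1b and Lacc1, none of them among the 5 nearest over the 12 libraries.

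Of 18 genes of the pump and its accessory proteins, 17 were tested, and 13 rose from TB spleen to tumour in Treg while 7 rose and 2 fell in Tconv. Over all genes 32.8% rose in Treg, and 26.4% rose and 22.8% fell in Tconv. The change in Treg less that in Tconv was called and positive for 9 of the 17 (interaction), against 11.7% of all genes called higher in that test, and the median over the list was 0.34 beside −0.03 over all genes. Atp6v0d1, named as the other form of the d subunit and not by its level, was at 107 and 105 CPM in tumour Treg, 100 and 97.9 in tumour Tconv, 65.9 and 62.5 in TB spleen Treg, 72.6 and 78.9 in TB spleen Tconv, 74.3 and 79.5 in normal spleen Treg and 84.8 and 85.8 in normal spleen Tconv. It differed little between Treg and Tconv where Atp6v0d2 differed most. Atp6v0a1, a form of the membrane a subunit named after its values were seen, was at 17.4 and 19.1 CPM in tumour Treg, 3.33 and 7.30 in tumour Tconv, 9.81 to 16.2 in spleen Treg and 1.72 to 3.05 in spleen Tconv. Like Atp6v0d2, it was higher in Treg than in Tconv at every site (edgeR adjusted p = 1.12e-05 to 0.000214), and it also rose in Treg from TB spleen to tumour (0.87 ± 0.26, adjusted p = 0.0113). The list as a whole did not share this Treg excess in spleen. In TB spleen 3 of the 17 were called higher in Treg than in Tconv and 6 lower (21% and 19.4% of all genes). In normal spleen 2 were higher and 8 lower (21.8% and 18.7%), and in tumour 8 were higher and 2 lower (27.2% and 26.7%). The 3 members with the highest mean level were Atp6v1d, Atp6v0a2 and Atp6ap1. Of them, Atp6ap1 was called higher in tumour Treg than in TB spleen Treg (0.31 ± 0.06, edgeR adjusted p = 0.001), and the values of Atp6v1d (−0.18 ± 0.11) and Atp6v0a2 (−0.13 ± 0.06) were not called. A list of 8 osteoclast and cell fusion genes summed to 789 to 957 CPM in the tumour and 820 to 1056 in spleen, nearly all of it from Acp5 (161 to 392 CPM), Itgb3 (103 to 378) and Nfatc1 (302 to 648). Tnfrsf11a was at 0.0418 to 0.846 CPM, and Dcstamp, Ocstamp, Oscar and Calcr were at 0.136 CPM or less in every library.

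Between Treg and Tconv of the tumour, 7 of the 35 tested members were called (53.9% of all genes), 6 higher in Treg and 1 lower (27.2% and 26.7% of all genes). The 6 were Atp6v0d2, Cebpb, Ctss, Cybb, Mmp9 and Zbtb46, and the lower gene was Siglech. Of the 17 tested macrophage and monocyte genes edgeR called 0, with 0 at an unadjusted p under 0.05, and DESeq2 and limma-voom also called 0. Their tumour Treg and Tconv levels overlapped except for C1qc. For Lyz2, Mrc1, Spp1 and Ctsk the direction of the small difference rested on which tumour Tconv library was used, with the values given further below. In TB spleen 10 members were called (40.3% of all genes), 8 higher in Treg and 2 lower (21% and 19.4% of all genes). In normal spleen 8 were called (40.6% of all genes), 7 higher and 1 lower (21.8% and 18.7% of all genes). Atp6v0d2, Cebpa, Cebpb, Ctss, Cybb and Zbtb46 were higher in Treg in both spleens. Csf1r was higher in TB spleen Treg by a log2 difference of 2.55 ± 0.77 (edgeR adjusted p = 0.0191), a call lost without TB spleen Treg library 2 (2.20) or TB spleen Tconv library 1 (1.99). It was 3.67 without TB spleen Tconv library 2.

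Between TB and normal spleen, 5 members were called in Treg (15.3% of all genes), 4 higher and 1 lower in TB mice (6.8% and 8.5% of all genes). In Tconv 6 were called (17.2% of all genes), 4 higher and 2 lower (9.74% and 7.49% of all genes). In Treg the higher genes were Cebpb, Zbtb46, Mpo and Csf1r and the lower gene was Ctss. In Tconv the higher genes were Cebpa, Cebpb, Cybb and Apoe and the lower genes were Ctss and Fcgr3. Csf1r had 35 counts in TB spleen Treg and 2 in normal spleen Treg, a ratio of 16.9 (95% counting interval 4.34 to 145; edgeR adjusted p = 0.0139). Its log2 difference, 3.91 ± 0.91, was 3.56 without TB spleen Treg library 2 and 2.95 without normal spleen Treg library 1, with no call in either fit, and 7.0 without normal spleen Treg library 2. These counts varied with the libraries used, and the number called over all genes fell and rose in the same fits. In Treg 2 members were called without TB spleen Treg library 2, normal spleen Treg library 1 or normal spleen Treg library 2, and 10 without either tumour Tconv library. In Tconv 3 and 2 members were called without TB spleen Tconv library 1 and library 2, and 10 without either tumour Tconv library. Without normal spleen Tconv library 2, edgeR called 0 in Tconv, with 6 at an unadjusted p under 0.05.

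The change from TB spleen to tumour differed between Treg and Tconv for 3 members (24.7% of all genes). The change in Treg less that in Tconv was positive for Spp1 and Mmp9 (11.7% of all genes) and negative for Atp6v0d2 (13.1% of all genes). Spp1 rose in both cell types, Mmp9 fell in Tconv and was not called in Treg, and Atp6v0d2 rose in Tconv and was not called in Treg. Without either tumour Tconv library 6 members were called.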

How the data were processed

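The authors deposited whole-number read counts, unscaled, with a column for each library and a row for each gene. STAR, featureCounts and the mm10 build are named per the submitters' processing notes, with no versions. The library kit keeps strand, per the labels' protocols, and no source used here states whether counting used it. The deposited counts went unchanged into edgeR 4.0.16 (R 4.3.3): filterByExpr by group (13509 genes), TMM scaling, and 1 quasi-likelihood fit of 12 libraries and 6 group means with 6 residual degrees of freedom. There were 7 comparisons of groups and 1 interaction, each two-sided, with Benjamini-Hochberg adjustment over all genes tested and a threshold of 0.05. SE is the log2 difference over the square root of F. Replicates varied by 3.56 to 17.0 times counting noise (chi-square per gene), so no column repeats another's counts. Separate animals and technical replicates cannot be told apart. The test was checked on simulated counts of genes that passed the filter, with a shared mean in every group apart from a set changed in tumour Treg. That check did not model genes present in some groups and absent from others, so it does not speak to their calls. Ratios to the macrophage core have exact binomial 95% intervals that cover counting error only, since reads carry no molecular identifiers.

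The members and lists were chosen with earlier results of these data known. Values in all 12 libraries are printed for Atp6v0d2, the 3 members of each class with the highest mean CPM, Lyz2, C1qa, Marco, Csf1r, members called between Treg and Tconv, between spleens or in the interaction, and members called lower in the tumour. Other members are given by their range, and of other lists up to 3 genes with the highest mean, with some further genes such as Camp. Exonic overlap and shared 50-base windows were taken from the GENCODE annotation of mm10. Siglecf and Adgre1 were matched by older symbols and Ly6g was not matched. Alternatives were DESeq2 1.42.0, its size factors, limma-voom (limma 3.58.1), library-size scaling, no filter, a filter of 30 counts in 2 libraries, replicate blocks, fits restricted to the groups compared, and fits without each library in turn. The figures used matplotlib 3.10.9.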

Additional observations from a re-analysis of the deposited data

Results flagged for a closer look

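In all, 3 members changed differently between the cell types from TB spleen to tumour, by the interaction term of the edgeR fit. Spp1 changed more in Treg, by a log2 difference of 5.55 (10.96 ± 0.83 in Treg and 5.41 ± 0.51 in Tconv). Its tumour levels were alike in both cell types (305 and 381 CPM in Treg, 161 and 546 in Tconv), and its TB spleen levels were not (0.123 and 0.212 CPM in Treg, 5.89 and 10.6 in Tconv). Atp6v0d2 changed less in Treg, by −3.07, and its TB spleen Treg libraries already held 34.7 and 37.4 CPM. For Mmp9 the change in Treg (0.53 ± 0.35, not called) less that in Tconv (−2.31 ± 0.42) was 2.85, and tumour Tconv held its lowest levels (1.30 and 4.08 CPM).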

How the results depend on the processing

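Of 5622 member values recomputed over 21 alternatives, 5404 kept their side of the threshold (219 of them uncalled values that changed sign), 87 lost and 127 gained a call, and 4 were reversed. The 4 were uncalled differences between tumour Treg and Tconv that turned to called increases in Treg without tumour Tconv replicate 2: Lyz2 0.77, Mrc1 0.77, Spp1 1.08 and Ctsk 0.88 on the log2 scale. Without replicate 1 they were −0.60, −0.92, −0.70 and −0.59. With library-size scaling the median over all genes between tumour and TB spleen was −0.14 in Treg and −0.11 in Tconv.

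Leaving out each library gave 27 to 30 members called between tumour and TB spleen in Treg, 29 to 32 in Tconv, 5 to 13 between Treg and Tconv in tumour, 7 to 14 in TB spleen, 7 to 9 in normal spleen, 2 to 10 between spleens in Treg, 0 to 10 in Tconv, and 2 to 6 in the interaction. The number called over all genes also moved with the library left out. Fits of only the groups compared called 9 members between spleens in Treg and 11 in Tconv. Over all genes those fits called 3670 and 3179, against 2066 and 2328 in the main fit. In the interaction, 5 members were called without a filter and 5 with DESeq2. The cause was not tested.

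The labels do not say that a replicate number marks a shared animal. Deviations of same-numbered libraries correlated by −0.03 to 0.19, and between Treg and Tconv of a site by 0.13 to 0.19. The block used the numbers in the titles, and the normal spleen libraries carry others in their descriptions (2 and 3 for Treg, 1 and 3 for Tconv). With a replicate block the interaction called 6 members over 12 libraries and 5 over the 8 libraries of TB mice, and no other count of members called moved by over 1.5 times. With 2 numbers per group, no check of each number was possible.

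The mean ratio of Atp6v0d2 per 1000 core counts in the tumour, 97.9 in Treg and 48.5 in Tconv, depends by construction on the genes below the line. It was 5253 and 2796 with C1qa, C1qb and C1qc only, 1246 and 584 with Marco, Mrc1 and Ear2 only, and 825 and 392 with the core less Lyz2, higher in Treg each time. With the TB spleen level subtracted, an alternative chosen after seeing the data, it was 39.2 in Tconv. Members with few spleen counts, such as Marco and Cd14, have fold changes limited by depth.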

Other observations

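Receptors that monocytes and T cells share were not in step with macrophage RNA. The chemokine receptor Ccr2 was at 750 and 821 CPM in tumour Treg, 24.1 and 29.0 in tumour Tconv, 83.8 and 144 in TB spleen Treg, 31.6 and 44.3 in TB spleen Tconv, 60.7 and 99.5 in normal spleen Treg and 23.2 and 25.2 in normal spleen Tconv. Tumour Treg stood above every other group, by a log2 difference of 4.88 ± 0.29 over tumour Tconv (edgeR adjusted p = 2.72e-08). The fractalkine receptor Cx3cr1 was at 41.0 and 34 CPM in tumour Treg, 8.06 and 8.34 in tumour Tconv and 0.502 to 5.52 in spleen. Among further neutrophil genes, the decoy receptor Il1r2 was at 87.2 and 75.5 CPM in tumour Treg, 6.49 and 3.81 in tumour Tconv, 74.5 and 78.0 in TB spleen Treg and 2.87 and 4.31 in TB spleen Tconv. Lactoferrin (Ltf) was at 25.9 and 24 CPM in tumour Treg, 9.19 and 10.2 in tumour Tconv and at most 0.804 in spleen, while Camp, another granule gene, was at 0.127 CPM or less in every library. Cd177, next in mean level after Ltf, was at 0.655 to 3.16 CPM in the tumour, lower in both Treg libraries than in both Tconv libraries. In spleen it was at 0.466 to 3.11 CPM. Per macrophage core count, Il1r2, Cd177 and Ltf varied by 41.9, 9.79 and 4.62 times over the tumour libraries, but Lcn2 and Cxcr2 by only 1.78 and 1.83 times.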
